A study of Arabidopsis thaliana with 8 samples.

Results

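The genes described here are the ABCG transporters of Arabidopsis thaliana other than ABCG2, ABCG6, ABCG11, ABCG12, ABCG20 and ABCG26. They were chosen by symbol: every gene that RefSeq names ABCG followed by a number, without those 6, which left 36 genes. Of these, 22 are half-size transporters (symbols up to ABCG28) and 14 are full-size transporters (ABCG29 to ABCG43). A probe was matched to 33 of them, out of 25371 loci with a matched probe on the array, and ABCG27, ABCG38 and ABCG42 had none. ABCG36 is listed in RefSeq under the symbol PEN3 and therefore fell outside the rule. The flower bud group was 4 pools of flower buds and the root group 4 pools of roots, all from Col-0 plants grown hydroponically for 6 weeks, with 8 to 10 plants in a pool. No mutant, transgene or treatment separated the groups. RNA of each pool was labelled with Cy3 and hybridised to a 1-colour Agilent oligonucleotide array.

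ABCG proteins are membrane pumps that use ATP to move lipids, phenolic compounds, hormones and other small molecules, mostly out of the cell. A half-size transporter carries a single nucleotide-binding domain and a single membrane domain and has to pair with itself or another half-size protein, whereas a full-size transporter carries both domains in duplicate and works alone. In plants, half-size members are best known for delivering the lipid and phenolic precursors of cuticle, suberin and the pollen wall, and full-size members for hormone transport, defence and the release of compounds from roots.

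Signals were compared as log2 of each probe's processed signal relative to the 75th percentile of its own array, so that a level of 0 is that percentile, and each difference is the flower bud mean minus the root mean of these log2 levels. Testing required a probe flagged well above background on each of the 4 flower bud arrays or each of the 4 root arrays, and a gene was called when limma's moderated test gave a Benjamini-Hochberg adjusted p under 0.05, over 22185 genes, with a difference of at least 2-fold. Each array held 61657 non-control spots, of which 79.3% to 81.5% were well above background in flower buds and 68.0% to 76.7% in roots; the number of arrays limits the precision. All arrays lay on 1 slide scanned on 1 day, and the flower bud arrays filled one row of it and the root arrays the other, which means that slide row cannot be told apart from tissue. The 5 matched floral markers were called higher in flower buds, and the 8 root endodermis and root hair markers and both root uptake markers were called higher in roots. The summed signal of the floral list, in multiples of the 75th percentile, was 30.6 to 38.0 in flower buds and 0.325 to 0.422 in roots, and that of the endodermis and root hair list was 0.256 to 0.424 in flower buds and 32.3 to 46.4 in roots. In pooled organs, fewer cells of a type and less RNA per cell cannot be told apart. The labels do not say that pools came from separate cultures, so the p-values measure only the spread between these pools.

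Of the 36 genes, 32 were tested, 16 were called higher in flower buds, 12 were called higher in roots and 4 were not called. Across all tested genes, 55% were called, 29.8% as higher in flower buds and 25.2% as higher in roots. The arrays of the groups did not overlap for 29 of the 32 genes, against 79.2% of all tested genes. Differences of 16-fold or more were called for 14 of the 32, against 17.1% of all tested genes. Of these 14, ABCG5, ABCG8, ABCG9, ABCG13, ABCG18 and ABCG19 were tested through flower buds alone and were dim in roots. The median absolute difference of the 32, dim members included, was 3.72, against 1.19 over all tested genes. Their median difference was 1.44, or 1.099 with dim members at the bounds given below, but -1.37 over the 23 members detected on every array. Of 21 half-size genes tested, 13 were called higher in flower buds and 4 were higher in roots, with a median difference of 3.35 that became -0.079 over the 13 detected on every array. Of 11 full-size genes tested, 3 were called higher in flower buds and 8 were higher in roots, with a median of -3.06. The half-size counts and median thus rest in part on 8 members that were tested through flower buds alone, and the difference between the half-size and full-size groups was not tested. The median over all tested genes was 0.12. Every called member had an adjusted p of 0.000643 or lower in limma's test.

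**Figure D1:**
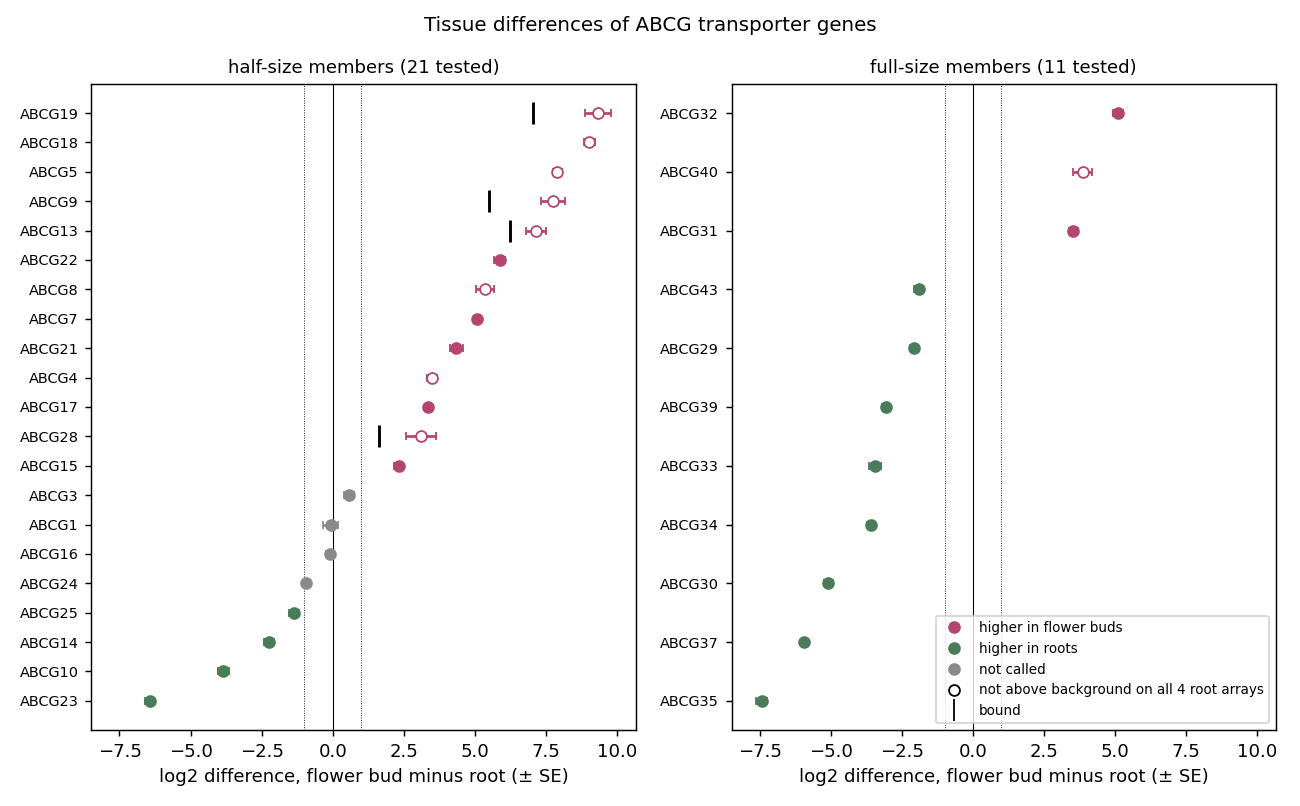
Difference between flower buds and roots (flower bud minus root, log2) of each of the 32 tested members, with bars for the SE of the fit (n = 4 arrays per tissue), dotted lines at 2-fold, open points for members not detected on all 4 root arrays and ticks for lower bounds. ABCG19 is plotted at a fitted 9.33, although its bound of 7.04 lies below the differences of ABCG18 (9.02) and ABCG5 (7.90), and ABCG35 lies furthest toward roots at -7.43.

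Detection was unequal between the tissues. Every root array was also dimmer, with a 75th percentile of 2218 to 3132, against 4149 to 4257 in flower buds. All 32 tested genes were well above background on all 4 flower bud arrays, but 9 of them were not on all 4 root arrays, and these 9 entered the test through flower buds, where they were high. They were ABCG4, ABCG5, ABCG8, ABCG9, ABCG13, ABCG18, ABCG19, ABCG28 and ABCG40, and all 9 were called higher in flower buds. ABCG9, ABCG13, ABCG19 and ABCG28 were not well above background on any root array, so that their differences are given as lower bounds. In root pool 2, ABCG9, ABCG13, ABCG19 and the untested ABCG41 shared the value -7.89. In root pool 3, ABCG9, ABCG19, ABCG28 and ABCG41 shared the value -8.04. Such shared values are a floor of the array and not levels of the genes, and they enter the SEs and p-values of these genes. These bounds hold for the processed signal. The normexp background correction added an offset of 50 before log2, which compresses differences between dim signals. With it the fitted differences were 4.23, 4.61, 5.73 and 0.64, each below the bound, and ABCG28 was not called (adjusted p = 0.0666 in limma's test). The part of the offset in this was not tested. Among the 23 members detected on every one of the 8 arrays, 7 were called higher in flower buds, 12 higher in roots and 4 were not called. Of all 17888 genes so detected, 47% were called, 21.7% as higher in flower buds and 25.2% as higher in roots. Within these 23, 5 of 13 half-size genes were higher in flower buds and 4 in roots, and 2 of 10 full-size genes were higher in flower buds and 8 in roots.

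The members known for cuticle formation were all called higher in flower buds. ABCG32 (PEC1), a full-size transporter required for the cutin of leaves and petals, had levels of 2.34, 2.49, 2.42 and 2.39 in flower buds, against -2.44, -2.74, -3.15 and -2.43 in roots. The groups were far apart, and the flower bud arrays differed from each other by less than 0.2 on this scale. The difference was 5.10 ± 0.16 (SE, n = 4 each), or 34.2-fold, with an adjusted p of 2.55e-08 in limma's test. ABCG5, a half-size transporter needed for a tight cuticle in seedlings, had 1.43, 1.37, 1.79 and 1.32 in flower buds, against -6.11, -6.39, -6.65 and -6.52 in roots. This 238-fold difference (7.90 ± 0.15, SE) was measured with the probe well above background on 2 of the 4 root arrays. ABCG13, a half-size transporter required for the cuticle of petals, had -0.24, -0.15, -0.12 and -0.49 in flower buds, against -7.68, -7.89, -6.29 and -7.74 in roots. Since no root array was well above background, the flower bud level of ABCG13 exceeded the root level by at least 75.7-fold. For such a bound, the mean level in the brighter tissue was set, on each array of the dimmer tissue, against either the probe itself or the weakest detected probe, whichever was higher.

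Of 9 tested genes of cutin synthesis, the enzymes that make the precursors such transporters carry, all 9 were called higher in flower buds. Their median difference was 3.43. Over all tested genes the share called higher in flower buds was 29.8%, and the list was chosen with earlier results of these data known. CYP77A6, a hydroxylase of flower cutin, was higher in flower buds by at least 423-fold, and LACS1, a long-chain acyl-CoA synthetase of wax and cutin, differed by 7.26 ± 0.25 (SE).

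Among the members known for pollen, 3 of 5 were called higher in flower buds. ABCG9 and ABCG31, which together supply steryl glycosides to the pollen coat, both belonged to these. ABCG9, a half-size transporter, had -0.68, -1.03, -1.06 and -1.24 in flower buds, against -9.70, -7.89, -8.04 and -9.39 in roots, where no array was well above background. Its flower bud level was higher by at least 45.0-fold. ABCG31, a full-size transporter, had -0.29, -0.72, -0.78 and -0.86 in flower buds, against -4.16, -3.96, -4.37 and -4.30 in roots. It was above background in both tissues and differed by 3.53 ± 0.15 (SE), or 11.6-fold. Neither sterol glucosyltransferase that makes steryl glycosides was called: UGT80A2 differed by -0.74 and UGT80B1 by 0.11.

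ABCG28, a half-size transporter required for pollen tube growth, had -3.85, -4.54, -5.04 and -6.02 in flower buds, against -8.64, -6.85, -8.04 and -8.34 in roots. The groups did not overlap, although the flower bud pools spanned more than 2 log2 units. ABCG28 was higher in flower buds by at least 3.09-fold, with an adjusted p of 0.000643 in limma's test. ABCG1 and ABCG16, half-size transporters that contribute to the pollen wall, were not called. ABCG1 had 0.18, -0.17, -0.55 and -1.15 in flower buds, against -0.08, -0.45, -0.64 and -0.20 in roots. ABCG16 had -2.53, -2.90, -2.57 and -2.57 in flower buds, against -2.46, -2.71, -2.33 and -2.69 in roots. The groups overlapped for both genes, with differences of -0.08 ± 0.28 and -0.09 ± 0.13 (SE) and adjusted p of 0.80 and 0.513 in limma's test. With scaling on reference genes, which moved all genes toward flower buds by a median of 0.62, they became 0.54 and 0.52.

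The flower bud pools differed in transcripts of late pollen. A list of 9 late pollen markers deviated by a median of 1.04, 0.37, -0.37 and -1.04 from the flower bud mean in pools 1 to 4, and its summed signal was 5.49 to 19.1 in flower buds and 0.599 to 0.773 in roots, where 7 of the 9 were not well above background on any array. ABCG28 deviated by 1.01, 0.32, -0.17 and -1.16 in the same pools and ABCG1 by 0.60, 0.25, -0.12 and -0.73. ABCG31 deviated by 0.37, -0.06, -0.12 and -0.20 and ABCG9 by 0.32, -0.03, -0.06 and -0.24. All 4 genes lay highest in pool 1 and lowest in pool 4, but this order was not limited to pollen genes. It was also that of the floral markers (0.20, 0.09, -0.10 and -0.23), the endodermis and root hair markers (0.17, 0.12, -0.07 and -0.17), the xylem markers (0.14, 0.04, -0.06 and -0.11) and the cytokinin transporter gene ABCG14 (0.26, 0.02, -0.03 and -0.24). The deviations of ABCG31 and ABCG9 were near these in size, while those of ABCG28 and ABCG1 were larger. So were those of ABCG40, placed below with abscisic acid, which had the same order (0.95, -0.02, -0.46 and -0.47). ABCG16 deviated by 0.11, -0.26, 0.07 and 0.08. The 7 tapetum and pollen coat markers, all called higher in flower buds with a summed signal of 78.6 to 111 there and 0.0150 to 0.0368 in roots, deviated by a median of 0.13, -0.46, -0.09 and 0.18. The part of pollen stage in these levels was not tested.

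**Figure D2:**
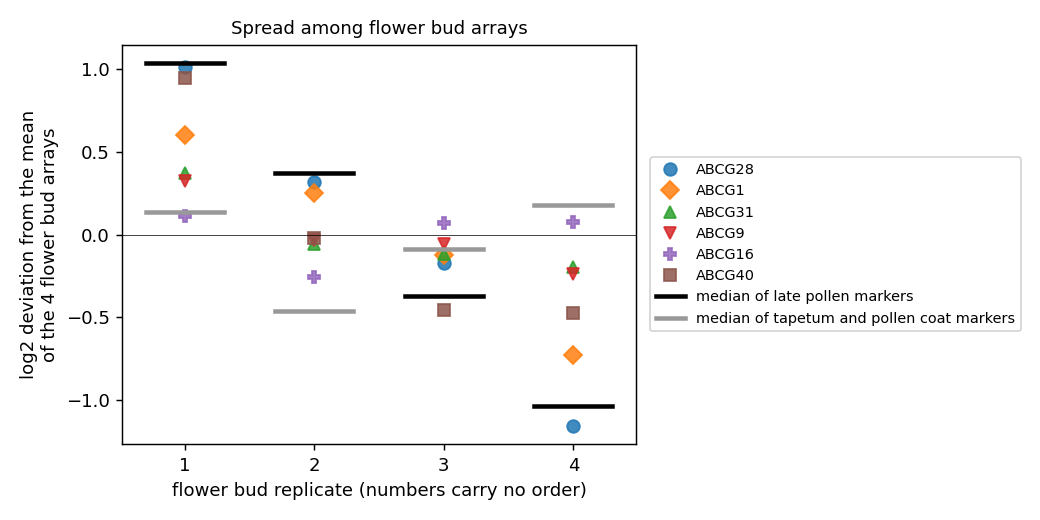
Deviation of each flower bud array from the flower bud mean on the log2 scale, for the pollen-related members, for ABCG40 and, as lines, for the median of the late pollen and of the tapetum marker list. The late pollen list and ABCG28 both lie about 1 above the mean in pool 1 and about 1 below it in pool 4.

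The 6 members grouped here under abscisic acid, the hormone of drought response and seed dormancy, divided between the tissues. Calls favoured flower buds for 4 of them and roots for 2. ABCG22 is counted among them, although it is described here from stomatal closure and not from transport of this hormone. ABCG18, a half-size importer that acts with ABCG17 in shoots, had 2.96, 2.76, 2.86 and 3.37 in flower buds, against -5.82, -5.77, -6.22 and -6.34 in roots. All flower bud arrays lay more than 8 log2 units above all root arrays. The fitted difference of 9.02 ± 0.18 (SE), or 519.8-fold, rests on a probe well above background on 2 of the 4 root arrays, and a dimmer probe of ABCG18 gave 3.81. ABCG17 had 0.92, 0.79, 0.82 and 1.06 in flower buds, against -2.58, -2.35, -2.41 and -2.47 in roots, a 10.2-fold difference (3.35 ± 0.10, SE). ABCG22, a half-size gene needed for normal stomatal closure, had 1.22, 1.17, 1.49 and 2.02 in flower buds, against -4.59, -4.52, -4.39 and -4.05 in roots, a 58.2-fold difference (5.86 ± 0.21, SE). ABCG40, a full-size importer of abscisic acid known from guard cells, was 14.5-fold higher in flower buds (3.86 ± 0.34, SE), with -1.79, -2.75, -3.19 and -3.21 there, against -6.44, -7.09, -6.65 and -6.19 in roots. ABCG40 was highest in flower bud pool 1, by about 1 log2 unit over the next pool.

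The abscisic acid transporters higher in roots were ABCG25 and ABCG30. ABCG25, a half-size exporter known from vascular tissue, had -1.44, -1.63, -2.16 and -1.87 in flower buds, against -0.39, -0.39, -0.20 and -0.66 in roots. The groups did not overlap, but at -1.37 ± 0.17 (SE), or 2.58-fold, this was the smallest difference among the called members, and with scaling on reference genes ABCG25 was not called (-0.75). ABCG30, a full-size transporter known from abscisic acid delivery in seeds and from root exudation, had -4.73, -4.90, -4.48 and -4.58 in flower buds, against 0.38, 0.05, 0.48 and 0.76 in roots. It was 34.0-fold higher in roots (-5.09 ± 0.16, SE). Of 10 other tested genes of abscisic acid synthesis and transport, 4 were called higher in flower buds, 2 higher in roots and 4 were not called, with a median difference of 0.21. NCED5 and NCED6, which encode enzymes of the rate-limiting step of synthesis, were higher in flower buds by at least 6.72-fold and at least 2.41-fold. The importer NRT1:2 (NPF4.6) differed by -3.51 ± 0.13 (SE) and the exporter DTX50 (AT5G52050) by -1.86 ± 0.24 (SE).

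ABCG14, the half-size transporter that loads cytokinin into the xylem for its movement from root to shoot, was called higher in roots. Its levels were 0.67, 0.42, 0.37 and 0.16 in flower buds, against 3.03, 2.74, 2.56 and 2.31 in roots. The groups did not overlap, and the difference was -2.26 ± 0.17 (SE), or 4.78-fold, with an adjusted p of 4.51e-06 in limma's test. Of 12 tested genes of cytokinin synthesis and activation, 2 were called higher in flower buds, 6 higher in roots and 4 were not called, with a median of -2.03. LOG5, a cytokinin-activating enzyme, differed by 3.72 ± 0.22 (SE), and the synthase IPT1, detected on 2 of 4 root arrays, by 1.17 ± 0.17 (SE). The synthase IPT5 differed by -8.24 ± 0.23 (SE), and IPT7, detected on 1 of 4 flower bud arrays, by -6.64 ± 0.49 (SE).

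The 5 full-size members grouped here under export from roots and defence, with ABCG30 counted again, were all called higher in roots. ABCG39 is counted among them, although it is described here from uptake of a herbicide. ABCG40, a full-size member placed above with abscisic acid and not counted here, was called higher in flower buds. The count of 5 therefore depends on the grouping. ABCG37 (PDR9), which releases auxin precursors and iron-mobilising coumarins from roots, had -3.79, -3.94, -4.10 and -4.16 in flower buds, against 2.00, 1.79, 1.92 and 2.05 in roots. The arrays of each tissue lay within 0.4 of each other, while the tissues differed by -5.94 ± 0.11 (SE), or 61.2-fold. ABCG34, which secretes the antimicrobial camalexin, had -0.31, -0.14, 0.21 and -0.50 in flower buds, against 3.38, 3.39, 3.43 and 3.37 in roots, an 11.9-fold difference (-3.58 ± 0.15, SE). ABCG29, which exports the lignin precursor p-coumaryl alcohol, had 0.94, 0.63, 1.05 and 0.97 in flower buds, against 2.89, 2.90, 3.01 and 3.14 in roots, a 4.25-fold difference (-2.09 ± 0.12, SE). Of the 5, ABCG29 alone lay above the 75th percentile on all 8 arrays. ABCG39 (PDR11), known from uptake of the herbicide paraquat, was 8.36-fold higher in roots by its brighter probe (-3.06 ± 0.12, SE), with -5.50, -5.17, -5.21 and -5.60 in flower buds, against -2.26, -2.19, -2.33 and -2.44 in roots. Its other probe gave the opposite direction, as described below.

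The genes that make the exported compounds were on the same side in most cases, and 25.2% of all tested genes were called higher in roots. The lists of these genes were chosen with earlier results of these data known, so they give no independent support. Of 4 tested genes of coumarin synthesis and release, 3 were called higher in roots and 1 was not called, with a median of -3.81. The uncalled gene, BGLU42, differed by 0.92 toward flower buds, without overlap of the tissues, and with scaling on reference genes all 4 were called. The hydroxylase S8H (AT3G12900) was higher in roots by at least 94.7-fold, and F6'H1 (AT3G13610), the first committed enzyme of the pathway, differed by -5.43 ± 0.23 (SE). Of 5 tested genes of camalexin synthesis, 4 were called higher in roots, with a median of -4.54. CYP71A12 was higher in roots by at least 33.6-fold and CYP79B2 differed by -4.81 ± 0.31 (SE). PAD3, which completes camalexin, was not called at -0.15. CYP71A13, also on this list, was well above background on 3 flower bud arrays and 0 root arrays and was not tested. Its mean level was -6.94 in flower buds and -8.78 in roots, and the arrays of the tissues overlapped. All 10 tested genes of monolignol synthesis were called higher in roots, with a median of -1.83, and 7 were called with scaling on reference genes; the largest differences were those of 4CL2, -3.16 ± 0.11, and HCT, -2.06 ± 0.11 (SE). Markers of xylem, a tissue rich in lignin, were also higher in roots in 5 of 5 cases, with a summed signal of 5.76 to 6.999 in flower buds and 19.5 to 27.6 in roots, and their part in the monolignol result was not tested. PEN3, the full-size defence transporter also called ABCG36, had -0.24, -0.10, -0.25 and 0.09 in flower buds, against 3.13, 3.50, 3.48 and 3.20 in roots, a difference of -3.45 ± 0.13 (SE).

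**Figure D3:**
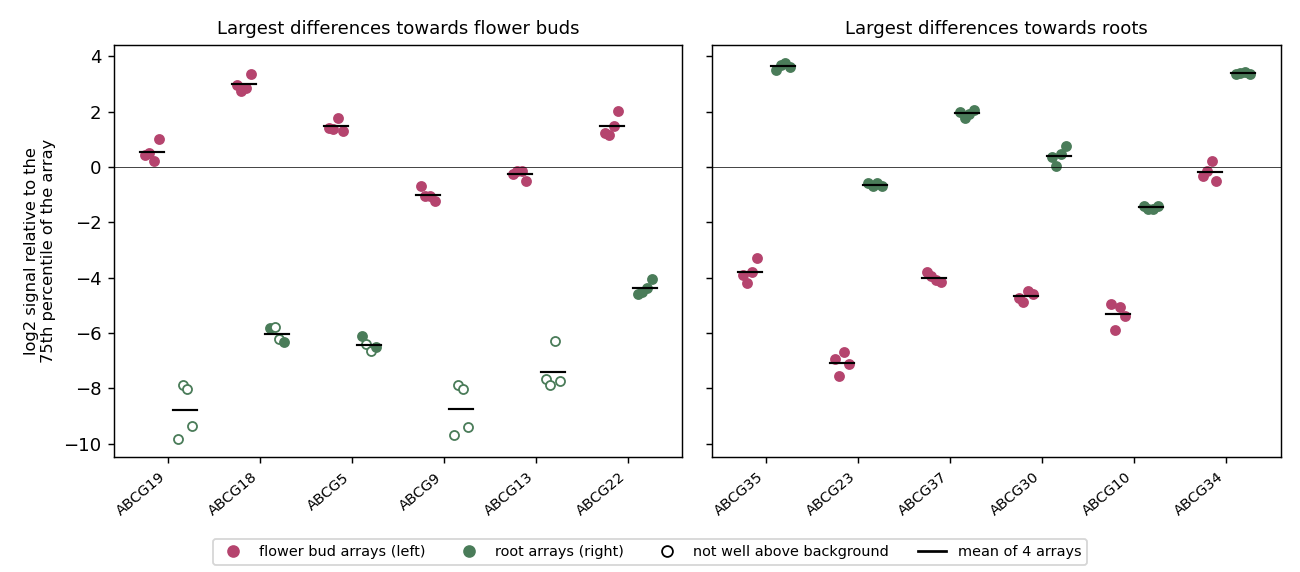
Level of the 6 called members with the largest fitted difference toward flower buds and the 6 toward roots on each of the 8 arrays, as log2 of signal over the array's 75th percentile. Flower bud arrays stand left of root arrays, open points are not well above background, and lines are means; levels of different members are not comparable. For ABCG37 the flower bud arrays lie between -4.16 and -3.79 and the root arrays between 1.79 and 2.05.

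For 10 half-size genes in none of the groups above, no transported compound is given here. Of these, 6 were called higher in flower buds, 2 higher in roots and 2 were not called. ABCG19, known for resistance to the antibiotic kanamycin, had 0.44, 0.52, 0.22 and 1.02 in flower buds, against -9.82, -7.89, -8.04 and -9.37 in roots. No root array was well above background, and the flower bud level of ABCG19 was higher by at least 132-fold, the highest bound among the members. ABCG8 was 40.9-fold higher in flower buds (5.35 ± 0.32, SE) and ABCG7 33.5-fold (5.07 ± 0.10). ABCG21 was 20.4-fold (4.35 ± 0.24), ABCG4 11.2-fold (3.49 ± 0.16) and ABCG15 4.99-fold (2.32 ± 0.15) higher there. In all 6 genes every flower bud array lay above every root array.

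ABCG23 and ABCG10 were the half-size genes of this kind that were higher in roots. ABCG23 had -6.96, -7.55, -6.69 and -7.12 in flower buds, against -0.56, -0.69, -0.59 and -0.70 in roots. At -6.44 ± 0.17 (SE), or 87.1-fold, its difference was the largest toward roots among the half-size genes, and its adjusted p was 9.38e-09 in limma's test. ABCG10 had -4.94, -5.90, -5.05 and -5.37 in flower buds, against -1.41, -1.52, -1.52 and -1.41 in roots, a 14.5-fold difference (-3.85 ± 0.20, SE). The root arrays of both genes lay within 0.2 of each other, and the flower bud arrays within 1. ABCG3 and ABCG24 were not called. ABCG3 had 0.07, 0.76, 0.92 and 0.86 in flower buds, against 0.12, 0.02, 0.18 and 0.02 in roots, and differed by 0.57 ± 0.19 (SE), with an adjusted p of 0.0207 in limma's test. ABCG24 had -0.52, -0.35, -0.07 and -0.24 in flower buds, against 0.76, 0.61, 0.64 and 0.56 in roots, and differed by -0.94 ± 0.11 (SE), with an adjusted p of 7.62e-05. Both passed the test's p threshold and missed the 2-fold limit, ABCG24 at 1.91-fold. ABCG3 was called with scaling on reference genes (1.18) and ABCG24 with centring on the array median (-1.06).

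Among the 4 full-size genes with no transported compound given here, all 3 tested were called higher in roots. ABCG35, the member furthest toward roots, had -3.89, -4.18, -3.81 and -3.29 in flower buds, against 3.51, 3.70, 3.75 and 3.61 in roots. Its difference was -7.43 ± 0.18 (SE), or 173-fold, with an adjusted p of 5.85e-09 in limma's test. ABCG33 had -3.97, -3.62, -3.13 and -3.00 in flower buds, against -0.03, -0.09, 0.29 and -0.08 in roots, a 10.9-fold difference (-3.45 ± 0.22, SE). ABCG43 had -6.12, -6.62, -6.21 and -6.08 in flower buds, against -4.37, -4.10, -4.50 and -4.41 in roots, a 3.76-fold difference (-1.91 ± 0.15, SE). The tissues did not overlap for any of the 3. ABCG41 was not well above background on any of the 8 arrays and was not tested.

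Several members lie beside each other in the genome, and such neighbours did not share a direction in every case. On chromosome 3, RefSeq places ABCG16, ABCG17 and ABCG18 in succession with 0 protein-coding genes between them, and ABCG19 follows after 1 other gene. ABCG16 was not called, with a difference of -0.09, while its neighbours ABCG17 (3.35) and ABCG18 (9.02) and the nearby ABCG19 (at least 132-fold) were all called higher in flower buds. On chromosome 4, ABCG41, ABCG30, ABCG42 and ABCG43 lie in succession. Of these, ABCG30 and ABCG43 were tested and both were higher in roots, by 34.0-fold and 3.76-fold. ABCG13 lies 3 genes from ABCG12 on chromosome 1, and both were called higher in flower buds, ABCG12 with 4.94 ± 0.15 (SE). ABCG37 lies 2 genes from ABCG20 on chromosome 3, and both were called higher in roots, ABCG20 with -1.75 ± 0.49 (SE). Neighbouring members can be similar in sequence, and the share of signal that a probe takes from its neighbour's transcripts was not tested.

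**Figure D4:**
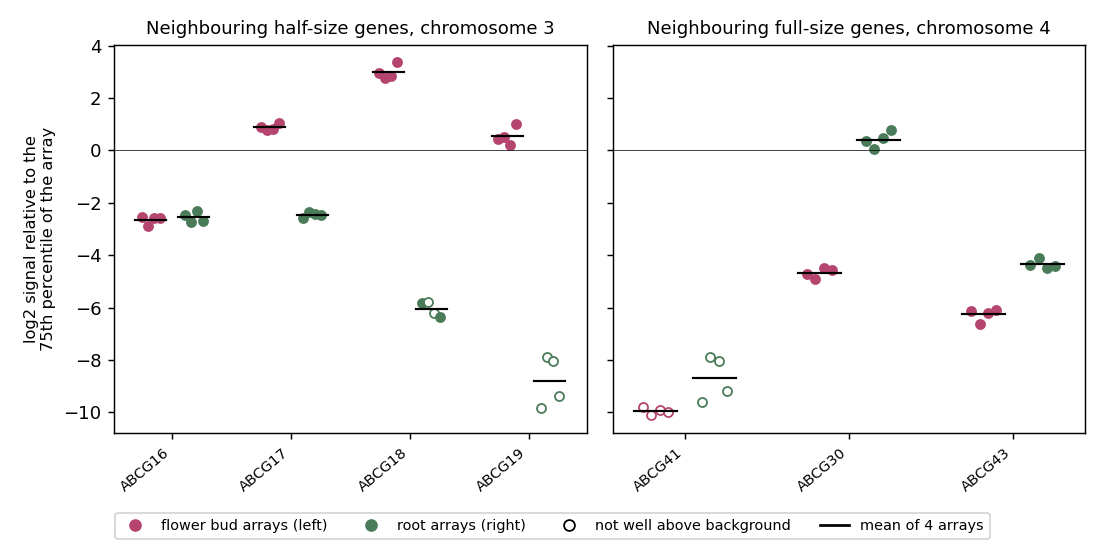
Level on each array (log2 of signal over the array's 75th percentile; lines are means) of the members in the chromosome 3 and chromosome 4 groups, in gene order without ABCG42, with flower bud arrays left of root arrays and open points not well above background. The arrays of the tissues overlap for ABCG16 and stand apart for its neighbours ABCG17 and ABCG18.

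Of the members, 11 had more than 1 probe, with 12 other probes in all. In 11 of these 12 the sign was that of the brighter probe, and in 10 the difference lay within 0.51 of it. ABCG39 and ABCG18 were the exceptions. The other probe of ABCG39 had -4.23, -4.89, -4.83 and -5.62 in flower buds, against -6.01, -6.65, -6.86 and -5.35 in roots. With this probe the tissues overlapped, since root pool 4 lay above flower bud pool 4, and the difference of 1.33 (adjusted p = 0.0125 over probes in limma's test) was called higher in flower buds. This probe was detected on all 4 flower bud arrays and on 2 root arrays, so the direction of ABCG39 depends on the probe, and with the mean of both it was not called (-0.87). The other probe of ABCG18 gave 3.81 in place of 9.02, with mean levels of -4.64 in flower buds and -8.45 in roots, none of the root arrays being well above background. ABCG18 was called higher in flower buds by both.

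Among the 32 tested members, the median SD between pools was 0.251 in flower buds and 0.198 in roots, against 0.170 in flower buds and 0.211 in roots for all tested genes. Among the 23 members detected on every array, the highest SD in flower buds was 0.568, that of ABCG1.

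The members were set beside the rest of the ABCG family and beside 2 other ABC families, ABCB, which includes auxin transporters, and ABCC, which includes vacuolar pumps for conjugated compounds. Of the 6 ABCG genes left out by the rule, 3 were called higher in flower buds (ABCG11, ABCG12 and ABCG26) and 3 higher in roots (ABCG2, ABCG6 and ABCG20). ABCG26, known for pollen wall formation, was higher in flower buds by at least 133-fold and ABCG11, a cuticle transporter, by 6.87 ± 0.18, while ABCG2 differed by -2.82 ± 0.21 and ABCG6 by -2.73 ± 0.43 (SE). Of 24 tested ABCB genes, 6 were called higher in flower buds, 7 higher in roots and 11 were not called, with a median absolute difference of 1.18, and 19 were called with scaling on reference genes. ABCB2 (6.04 ± 0.21, SE) and ABCB13 (6.12 ± 0.47, detected on 1 of 4 root arrays) had the largest fitted differences toward flower buds. ABCB4 (-6.76 ± 0.13), an auxin transporter of root hairs, lay furthest toward roots, and ABCB17 was higher there by at least 15.9-fold. Of 13 tested ABCC genes, 4 were called higher in flower buds, 2 higher in roots and 7 were not called, with a median absolute difference of 0.77. ABCC15 (3.30 ± 0.43, SE, detected on 2 of 4 root arrays) and ABCC9 (2.63 ± 0.25) lay furthest toward flower buds, ABCC6 (-3.30 ± 0.12) and ABCC7 (-2.06 ± 0.15) furthest toward roots. The share called was 28 of 32 among the members, and whether it differs from that of these families was not tested.

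**Figure D5:**
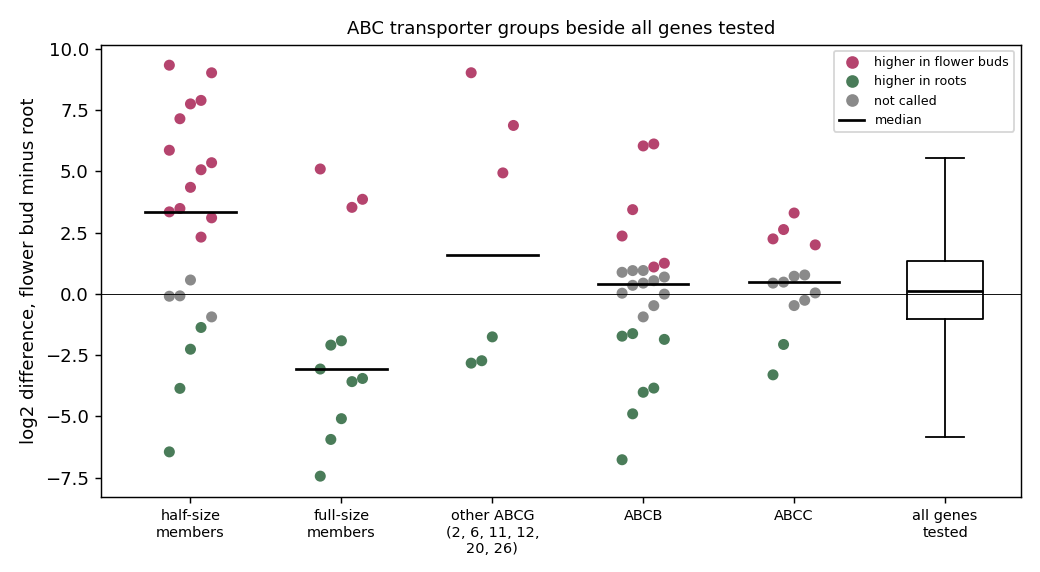
Flower bud minus root difference (log2) of every tested gene in each transporter family, 1 point per gene, with lines at the medians; the box for all genes tested spans the 25th to 75th percentile and its whiskers the 5th to 95th. Half-size members have a median of 3.35 and full-size members of -3.06, against 0.40 for ABCB and 0.48 for ABCC genes, and the half-size median is -0.079 over the 13 members detected on every array.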

How the data were processed

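Roots and flower buds were measured on 8 1-colour Agilent arrays. The deposited scanner output held processed signal intensity and background flags per spot, made with Agilent Feature Extraction 10.10.1.1 per the file headers. The deposited value table holds log2 values of the same arrays, which correlated with the scanner values at 0.9993 to 0.9997 after each probe was centred on its median over the arrays, and its column medians lay between -0.0592 and 0.0957; the authors' scaling, centring and direction of it are otherwise not stated in the labels used.

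Control and outlier spots were left out, 408 repeated lines were dropped, and 0 spots were saturated. Log2 processed signal minus the array's 75th percentile (2218 to 3132 in roots, 4149 to 4257 in flower buds) was averaged over spots of a probe. Of 43603 probes, 34267 matched 1 RefSeq locus through the array's systematic name, and the probe with the highest mean signal stood for a gene. Tissue was the only factor in limma 3.58.1 (R 4.3.3; Python 3.11.15 for tables), with Benjamini-Hochberg adjustment. Scripts were tested on simulated data.

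Members and gene lists were chosen with earlier results of these data known. Every member is named. Values on each array are given for the 6 members furthest toward each tissue among those called, for uncalled members with a known substrate and for members with an array apart from its group, to which the other members with a known role and some uncalled or full-size ones were added; from other lists, the 2 largest called differences in each direction are named where there are any. Alternatives changed the scaling, background correction, filter, probe rule, replicate block and the arrays used. The planned normexp correction, with an offset of 50, used the median spot signal, since no mean signal column was used here. Protein identity and promoter motifs were planned and not analysed here, and no coordinates are given, because the array's design names the build ath1:Jan2004 per the file headers, and the RefSeq table another.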

Additional observations from a re-analysis of the deposited data

Results flagged for a closer look

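Of 66 groups of 4 arrays, 3 held an array apart from the others, when the gap to the nearest array, as a share of the group's range, was compared with Dixon's 95% critical value; chance gives about 1 in 20. ABCG13 stood at -6.29 in root pool 3, against -7.89 to -7.68 in the other root pools, a gap of 0.866 of the range. No root array was well above background for ABCG13, and its -7.89 is a floor value of that array. ABCG16 stood at -2.90 in flower bud pool 2, against -2.57 to -2.53 in the other flower bud pools, a gap of 0.890 of the range. ABCG33 stood at 0.29 in root pool 3, against -0.09 to -0.03 in the other root pools, a gap of 0.845 of the range. The causes were not tested.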

How the results depend on the processing

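Over 567 values of single members under the alternatives, 557 kept direction and side of the threshold. Many of these differences could not change. The filter alternatives and the replicate block leave every difference as it was, and the probe rules leave that of a member with 1 probe. With genes detected on every one of the 8 arrays, where fewer members are tested, 7 members and 5 half-size genes were called higher in flower buds (9 half-size genes either way), and the medians became -1.37 over all members and -0.079 over half-size genes. Scaling on 6 reference genes, whose median difference was otherwise -0.55 with 1 called, moved the median of all genes by 0.62 and the share of calls higher in flower buds to 69.8%, against 54.1%. Under it the medians were 2.06 (all), 3.96 (half-size) and -2.45 (full-size), ABCC calls numbered 10 in place of 6, ABCB calls 19 in place of 13 and monolignol calls 7 in place of 10, all 32 members moved by over 1.5-fold, ABCG1 became 0.54 and ABCG16 0.52, ABCG3 was called at 1.18 and ABCG25 was not called at -0.75. With normexp the medians were 0.54, 2.18 and -2.50, ABCG28 was not called at 0.64, and 15 members moved by over 1.5-fold. The full-size median was -3.33 with quantile scaling, -2.58 without a filter (all members 0.57) and -1.96 with the mean of all probes, where ABCG39 was not called at -0.87. ABCG24 was called with centring on the median (-1.06) and without flower bud replicate 3 (-1.01). ABCG1 ranged from -0.28 to 0.16 with a replicate left out, above 0 without flower bud replicate 4 (0.16) or root replicate 1 (0.01). Leaving out each replicate gave 28 to 29 calls (16 higher in flower buds, 12 to 13 in roots), 17 to 18 among half-size genes, medians of 1.36 to 1.59, 3.30 to 3.49 and -3.13 to -2.99, 12 to 15 ABCB and 8 to 10 monolignol calls. Same-numbered pools did not deviate together (correlations -0.267 to 0.0994), and a fit with the replicate number as a block again called 16 and 12 members. Causes were not tested. Signal near background limits the 9 members dim in roots.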
